A study of Mus musculus with 14 samples.

Results

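The peaks with the most sequence tags were taken from methyl-CpG binding domain sequencing (MBD-seq) of 14 mouse cell samples. In each sample's list of methylated peaks, the 500 peaks with the largest tag count were kept. Peaks on chromosomes X and Y (34453 over all samples) were left out of the ranking, unplaced contigs were ranked with the chromosomes, and ties in tags were broken by the p-value score of the peak. The 7000 peaks so chosen were 0.658% of 1063163 peaks, and they lay in 1910 of 153099 merged regions (1.25%), a merged region being a stretch covered by overlapping peaks of any samples. Because tags chose the peaks, the tag levels of these peaks are a description and carry no test of their own.

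MBD-seq captures sonicated DNA by a protein domain that binds methylated CpG, so a peak gains tags with more methylated CpGs, with a longer methylated stretch and with more copies of the sequence in the cell. Most of the CpGs of mammalian genomes are methylated, and dispersed repeats and satellite arrays hold many of them, whereas CpG-rich promoters are mostly unmethylated and imprinted genes carry methylation on the copy from 1 parent. A tag from a sequence with many copies can be placed at any assembled copy, and copies missing from the assembly add tags to the copies that it holds.

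Induced pluripotent stem (iPS) cells were represented by 4 Aid+/+ clones and by 4 Aid-/- clones, in which the Aid gene is disrupted. Embryonic stem (ES) cells were represented by 3 lines, and mouse embryonic fibroblasts (MEFs) by 3 Aid+/+ cultures. Aid encodes activation-induced cytidine deaminase, which edits antibody genes in B cells, and the study asked whether its loss changes DNA methylation in reprogrammed cells. The iPS clones (passage 6) and MEFs (passage 3) were male, carried a Nanog-GFP reporter and had a background that mixes strains C57BL6, DBA and 129S4. Each iPS sample was 1 clone, made from MEFs with retroviruses that brought in Sox2, Oct3/4 and Klf4, in some cases also c-Myc, and kept under puromycin, so the clones hold added copies of these genes. The labels name no reporter for the ES lines, which were RF8 of strain 129SV at passage 19 (replicate 1), MG1.19 of strain 129Ola (replicate 2) and B6 ES of strain C57BL6 (replicate 3). iPS and ES cells were grown on gelatin. The study's methods describe MEFs as made from single embryos and tell the clones apart by their Klf4 insertions, but the labels do not tie each sample to an animal, so p-values measure the spread between these samples. The names of the clones fall into 3 series, and 1 series holds Aid+/+ clones 3 and 4 together with Aid-/- clones 1 and 2.

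Libraries held 20.1 to 36.9 M tags (M, mega), of which 6.65 to 19.6 M were left after the filter that keeps 2 tags per position and strand. The filter removed 43.9 to 73.0% of tags in Aid+/+ iPS cells, 54.1 to 78.7% in Aid-/- iPS cells, 44.7 to 49.2% in ES cells and 28.9 to 41.8% in MEFs. Peak calling was done in 4 processing runs, named A to D here from the file headers, and no run held Aid+/+ iPS cells together with ES cells or MEFs, so run cannot be told apart from cell type in comparisons with Aid+/+ iPS cells. Run C held Aid-/- iPS 3, the 3 ES lines and MEF 1. Between replicates of a group at most 1 peak was identical in position and tags, so no sample was taken for a repeat deposit of another.

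Many of the member regions shared sequence with each other. The 30-base sequence shared by the most member regions was taken first (among near-equal choices, that with the most CpGs), its regions were set aside, and the search was repeated while 10 or more regions shared a sequence. This gave 10 families, numbered by size, which held 1299 of the 1910 regions. They are shown because they say what most of these peaks are made of. Each is written 5′ to 3′ with its CpGs, the sites that the binding domain needs, in capitals, from the mouse genome of NCBI build 37 (mm9).
Family 1, chr9:119777286-119777315, plus strand: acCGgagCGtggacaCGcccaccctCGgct
Family 2, chr11:121180411-121180440, plus strand: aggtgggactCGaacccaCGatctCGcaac
Family 3, chr5:110335418-110335447, minus strand: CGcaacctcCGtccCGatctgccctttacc
Family 4, chr10:27538497-27538526, plus strand: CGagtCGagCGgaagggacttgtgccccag
Family 5, chr12:106868573-106868602, minus strand: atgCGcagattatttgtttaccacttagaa
Family 6, chr2:174878296-174878325, plus strand: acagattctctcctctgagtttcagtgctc
Family 7, chr17:33182278-33182307, plus strand: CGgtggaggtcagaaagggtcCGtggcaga
Family 8, chr6:56196706-56196735, plus strand: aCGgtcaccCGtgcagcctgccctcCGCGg
Family 9, chr6:47631431-47631460, minus strand: agcCGgtgctCGtCGctCGtCGctCGtCGc
Family 10, chr9:41716187-41716216, minus strand: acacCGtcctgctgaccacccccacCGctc

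Family 1 alone held 906 member regions (47.4%), of which 679 were intergenic, 193 intronic and 34 over an exon. Its sequence occurs 1507 times in the genome, and 1505 merged regions of the whole series hold it. Families 2 to 10 held 147, 58, 53, 44, 33, 25, 12, 11 and 10 member regions. Their sequences occur 411, 66, 3530, 4721, 3628, 182, 1219, 16 and 65 times in the genome. Families 4, 6 and 8 lay in tandem arrays: 300 of the 313 top peaks of family 4 repeated with a period of 208 bp, 46 of 70 of family 6 with 212 bp and 13 of 21 of family 8 with 206 bp. The printed sequence of family 6 has no CpG, although its peaks held a median of 5.34 CpGs per 100 bp. The class of repeat was not looked up.

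Sequences of 5 regions outside the families are shown because the results return to them, again with CpGs in capitals and on the plus strand. AY036118 and Gm10800 lay under the rank 1 peaks, the Zfp629 sequence lay under a top peak of all 14 samples, and the last pair lay under peaks that ranked among the top in MEFs alone.
AY036118, chr17:39981265-39981294: CGctccCGCGaCGCGggcctgCGcCGCGCG
Gm10800, chr2:98506401-98506430: tacactgttctacaatgcCGgtttccaaCG
Zfp629, chr7:134754695-134754724: gtagggcttctCGccCGtgtgCGtgCGgCG
Zfp865, chr7:4981901-4981930: gcccaCGcagCGgcCGggactcCGCGgcCG
Bcl11b, chr12:109154322-109154351: gCGcctggCGCGaaggcccCGcCGCGccCG

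The 500 peaks were few but deep. They made up 0.451 to 1.48% of the peaks of a sample and held 4.54 to 13.3% of all tags in peaks. The rank 1 peak held 3210 to 20427 tags. At the edge of the rule, the rank 500 peak held 906, 621, 629 and 398 tags in Aid+/+ iPS clones 1 to 4 and 510, 394, 321 and 690 in Aid-/- iPS clones 1 to 4. It held 404, 465 and 557 tags in ES lines 1 to 3 and 625, 519 and 532 in MEF cultures 1 to 3. The next peak in each list held the same number, or 1 tag fewer in ES 1, MEF 2 and MEF 3, so the edge is not a natural break. The top peaks were long, with a median length of 1808 to 2674 bp against 549 to 852 bp for all peaks of a sample. Their median fold enrichment over the local background was 9.85 to 19.7, against 12.3 to 16.6 for all peaks. It was below that of all peaks in every iPS clone and in ES 3, and above it in ES 1, ES 2 and the MEF cultures. With 2 tags kept per position and strand, a base pair can start at most 4 tags, and the densest top peak of each sample reached 1.90 to 3.34 tags per bp, or 47.4 to 83.4% of that cap.

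Compared with the other peaks of the same sample, the top peaks were richer in CpG and in repeated sequence. Their median CpG density was 4.17 ± 0.356 CpGs per 100 bp (SD, n = 14 samples) against 2.94 ± 0.208 for the rest, and it was higher in 14 of 14 samples (exact two-sided sign-flip permutation test, p = 0.000122, the smallest it can give; BH-adjusted over 4 measures 0.000488). A mean of 73.9% ± 17.5 of the top peaks against 31.6% ± 7.27 of the rest were mostly multi-copy, meaning that over 50% of their 31-base sequences occur more than once in the genome (higher in 13 of 14 samples, exact permutation p = 0.000244, BH-adjusted 0.000488). MEF 3 was the exception, with 37.1% of its top peaks and 44.2% of its other peaks mostly multi-copy. Median GC content was 51.8% ± 2.15 against 49.96% ± 0.605 (higher in 13 of 14 samples, exact permutation p = 0.0011, BH-adjusted 0.00146). The sign-flip test treats the 14 samples as independent, but they share many top peaks and include related clones. A ranking by tags also favours CpGs and repeated copies. The p-values of this paragraph are therefore descriptions. Exons went the other way in the pluripotent cells. In these, 7.4 to 26.6% of the top peaks lay over an exon, whereas in the 3 MEF cultures 40.8 to 47.6% did. Of the other peaks, 28.3% ± 2.38 did over all samples. Top peaks were higher in 3 of 14 samples, the MEF cultures (exact permutation p = 0.0431). That test pools all 14 samples, with differences of -21.2 to 18.6 percentage points, so it tests neither cell type by itself.

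What the top peaks consisted of differed between MEFs and the other cells. Mostly multi-copy peaks numbered 450, 422, 426 and 387 of the top 500 in the Aid+/+ iPS clones and 384, 327, 376 and 455 in the Aid-/- iPS clones. They numbered 376, 443 and 331 in the ES lines and 253, 242 and 182 in the MEF cultures, so that every MEF culture lay below every other sample. As a share of the top peaks with known sequence, the means were 86.1% ± 5.60 for 4 Aid+/+ iPS clones and 45.8% ± 7.62 for 3 MEF cultures (SD), a difference of -40.3 percentage points (exact two-sided permutation p = 0.0571, the smallest that 3 against 4 samples allow when both tails are counted; BH-adjusted over 12 tests 0.229). Median GC content was 50.4% ± 0.345 and 54.9% ± 0.153, and median CpG density 3.91 ± 0.177 and 4.71 ± 0.129 CpGs per 100 bp. Neither measure overlapped between these groups, and both had the same exact permutation p of 0.0571 (BH-adjusted 0.229). The ES lines spread widely, with a mean of 78.9% ± 12.5 multi-copy peaks (exact permutation p against Aid+/+ iPS cells 0.343, BH-adjusted 0.514), 67.1% in ES 3 and 92.1% in ES 2. Within run C, MEF 1 had 51.3% multi-copy peaks, Aid-/- iPS 3 had 78.8% and the ES lines 67.1 to 92.1%.

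The genotypes overlapped in all 4 measures. Aid-/- iPS clones had 79.1% ± 10.5 mostly multi-copy peaks (exact permutation p = 0.314), a median GC content of 51.9% ± 2.28 (exact permutation p = 0.343), 4.12 ± 0.319 CpGs per 100 bp (exact permutation p = 0.286) and 2.6% ± 1.36 of top peaks on unplaced contigs against 2.15% ± 0.412 (exact permutation p = 0.829), with BH-adjusted values of 0.514 or more. In run A, the only run with both genotypes, Aid+/+ clone 1 had 92.4% multi-copy peaks and the 3 Aid-/- clones 66.9 to 92.5%. Contig peaks also overlapped between cell types, at 2.67% ± 1.21 in ES cells (exact permutation p = 0.571) and 1.6% ± 0.346 in MEFs (exact permutation p = 0.171).

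**Figure D1:**
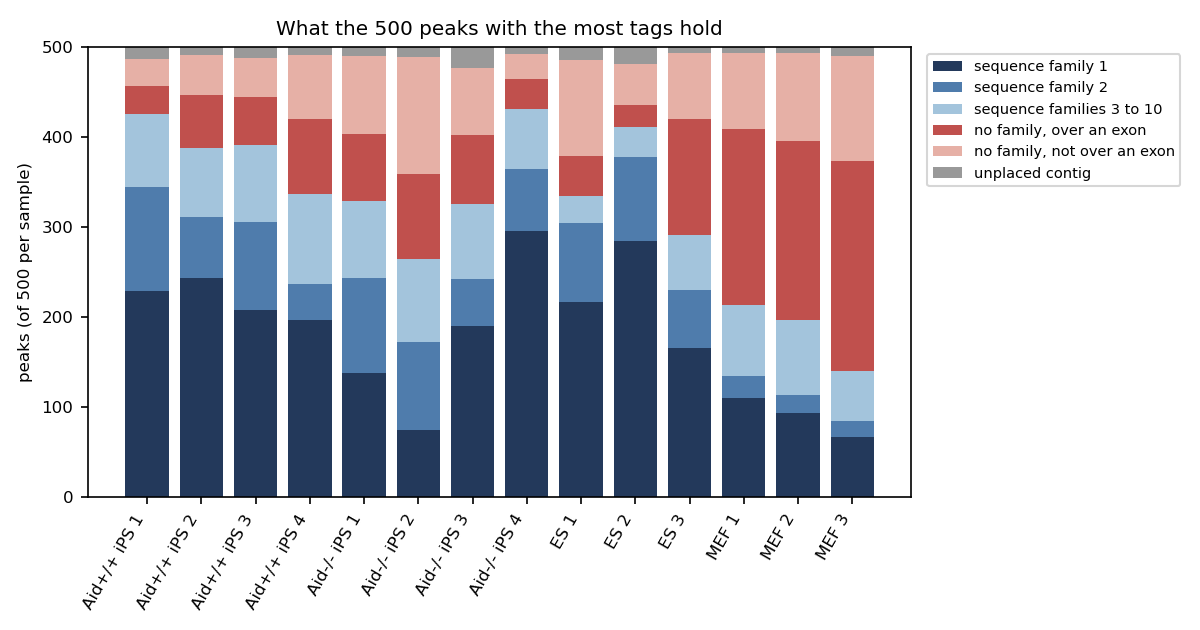
Composition of the 500 peaks with the most tags in each of the 14 samples, as stacked bars that count peaks of family 1, family 2, families 3 to 10, no family over an exon, no family elsewhere and unplaced contigs. Family 1 fills 197 to 243 of 500 in the Aid+/+ iPS clones and 67 to 110 in the MEF cultures, where 195 to 233 peaks lie over an exon outside any family.

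The top peaks recurred between samples to a limited degree. Of the 1910 member regions, 552 (28.9%) held a top peak of 1 sample only, 319 of at least 7 samples and 24 of all 14, although 1588 held some peak in every sample. A pair of MEF cultures shared 71.8% ± 2.48 of their top peaks (SD over 3 pairs), a pair of Aid+/+ iPS clones 48.3% ± 6.44 (6 pairs) and a pair of Aid-/- iPS clones 50.2% ± 9.23 (6 pairs). Pairs of clones with different genotypes shared 49.2% ± 4.53 (16 pairs), within the range of pairs of the same genotype. ES lines, which differ in strain, shared 37.7% ± 11.6 with each other (3 pairs) and 38.3% ± 4.27 with Aid+/+ iPS clones (12 pairs). Aid+/+ iPS clones and MEFs shared 29.04% ± 2.53 (12 pairs). These are descriptions, since pairs share samples.

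The families took different numbers of places from sample to sample. Family 1 supplied 229, 243, 208 and 197 of the top 500 in Aid+/+ iPS clones 1 to 4, and 138, 75, 190 and 296 in Aid-/- iPS clones 1 to 4. It supplied 217, 284 and 166 in the ES lines and 110, 93 and 67 in the MEF cultures. The Aid-/- clones reached from 75 in clone 2, inside the range of the MEFs, to 296 in clone 4, above every other sample, while all 3 MEF cultures lay below all 4 Aid+/+ iPS clones and all 3 ES lines. Family 2 supplied 40 to 116 top peaks in iPS clones, 64 to 94 in ES lines and 18 to 25 in MEFs, and family 7 supplied 4 to 17, 6 to 17 and 1. Nearly every region with the sequence of family 1, 2 or 7 held a peak in every sample (98.4 to 100%), so these families lost places in MEFs without losing their peaks.

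Families 3, 4, 6 and 8 differed by cell type or by ES line. Family 4, the 208-bp array, supplied 16, 37, 36 and 51 top peaks in Aid+/+ iPS clones, 26, 31, 49 and 31 in Aid-/- iPS clones, 0, 0 and 15 in ES lines and 8, 12 and 1 in MEFs. Of the 1663 regions with its sequence, 98.7 to 99.8% held a peak in each iPS clone, 43.6, 15.6 and 98.3% in ES lines 1 to 3 and 92.8, 95.1 and 65.8% in MEF cultures 1 to 3. ES 3, of strain C57BL6, thus resembled the iPS clones and ES 1 and 2, of 129 strains, did not; strain and line cannot be told apart with 1 line each. Family 6, the 212-bp array, supplied 0 top peaks in all 8 iPS clones, 1 in each ES line and 30, 28 and 9 in MEFs. Its 3401 regions held a peak in 34.6 to 77.4% of cases in iPS clones, 39.3, 15.7 and 96.4% in ES lines and 91.5 to 97.1% in MEFs, so its wider presence in MEFs was shared by ES 3. Family 8, the 206-bp array, supplied top peaks in MEFs only (10, 10 and 1), while 98.6 to 99.8% of its 490 regions held a peak in iPS clones and in MEFs and 77.8, 69.8 and 99.8% in ES lines 1 to 3. Family 3 supplied 11 to 40 top peaks in iPS clones and 26 to 42 in MEFs but 1, 1 and 23 in ES lines, and in ES 1 54.5% of its 66 regions held a peak against 100% in every other sample. Families 5, 9 and 10 supplied at most 16, 8 and 8 top peaks in a sample.

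Regions under a top peak of every sample were repeated sequence in part. Of the 24 such regions, 13 were mostly multi-copy, 8 were not and 3 lay on unplaced contigs. In a sample, a mean of 73.9% of the top peaks with known sequence were mostly multi-copy. Of the 24, 4 belonged to a family, against 1299 of all 1910 member regions, so this set was less often in a family than the members at large. The largest peak of 13 samples lay over AY036118 (chr17:39979481-39986123, exon), an annotated transcript known to hold a copy of the ribosomal RNA unit, of which the cell carries many copies. It held 13882, 16574, 6432 and 5613 tags in Aid+/+ iPS clones, 7225, 7209, 4569 and 19720 in Aid-/- iPS clones, 2290, 20427 and 12301 in ES lines and 19211, 18504 and 18060 in MEFs. Its tags ranged 8.92-fold over the samples, and the values in MEFs lay above all 4 Aid+/+ iPS clones in tags but inside their range per M filtered tags, with means of 1009 ± 41.2 in the 3 MEF cultures and 846 ± 417 in the 4 Aid+/+ iPS clones (SD).

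Another set of regions gave almost the same count in every sample. Gm10800 (chr2:98505967-98507974, exon), the largest peak of ES 1, held 3195, 3223, 3182 and 3186 tags in Aid+/+ iPS clones, 3180, 3167, 3166 and 3169 in Aid-/- iPS clones, 3210, 3247 and 3194 in ES lines and 3251, 3260 and 3243 in MEFs. The highest was 1.03 times the lowest, with a coefficient of variation (CV) of 1.05%, while the filtered tags of the libraries differed 2.95-fold (CV 28.8%). A region 22.8 kb from Gm5614 (chr9:35112254-35113671) held 1259 to 1272 tags (CV 0.309%), and Gm10801 (chr2:98501974-98504553), beside Gm10800, held 2198 to 3160. These 3 of the 24 regions varied by less than 1.5 times, and 10 of the 24 spanned a smaller fold range than the filtered tags. Here the tag count did not follow depth, and a value per M tags then falls as the library grows: Gm10800 had 476 tags per M in Aid-/- iPS 3, the library with the fewest filtered tags, and 166 in MEF 1, that with the most. Its density was 1.85 to 2.46 tags per bp against the cap of 4; the part of the duplicate filter in these counts was not tested.

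**Figure D2:**
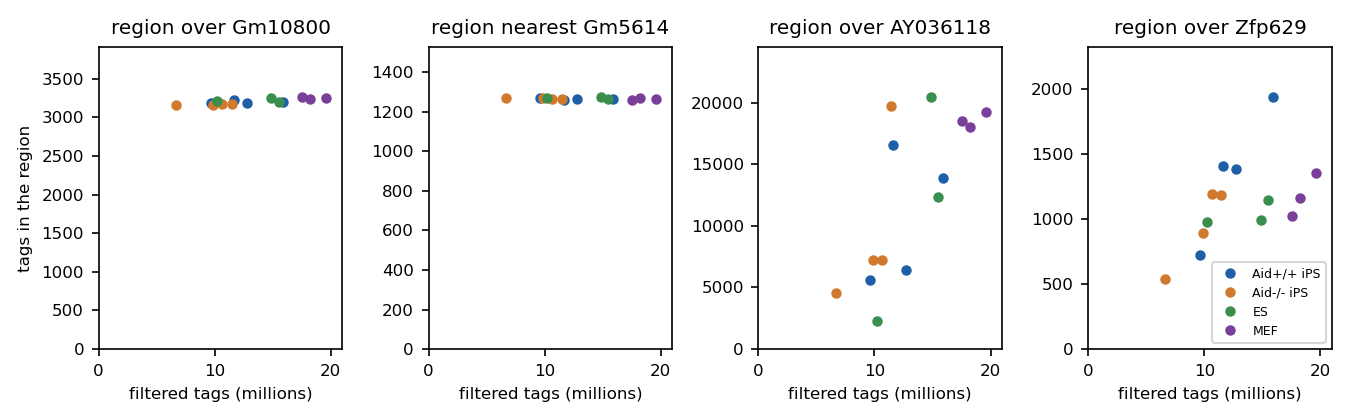
Tags of the region against filtered tags of the library (M) for 4 regions with a top peak in every sample, 1 panel a region (Gm10800, the region near Gm5614, AY036118 and Zfp629) with its own axis from 0, and 1 point a sample. Gm10800 stays between 3166 and 3260 tags and the region near Gm5614 between 1259 and 1272 at every depth, whereas AY036118 runs from 2290 to 20427.

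Other regions of this set lay in or near named genes. Zfp629, a zinc finger protein gene whose coding exon held the peak (chr7:134754073-134756230), had 122, 121, 109 and 74.9 tags per M filtered tags in Aid+/+ iPS clones, 112, 90.6, 81 and 103 in Aid-/- iPS clones, 95.9, 66.7 and 74.2 in ES lines and 69.2, 58.6 and 63.6 in MEFs. The MEF cultures lay below every iPS clone on this scale, whereas the edgeR fit with TMM scaling (described with the comparisons) put them 0.52 ± 0.21 higher than Aid+/+ iPS cells on the log2 scale (edgeR BH-adjusted p = 0.0596), so the direction depends on the scaling. The other groups overlapped, and 0.365% of the sequence was multi-copy. Dux, a homeobox gene active in cleavage-stage embryos and present in tandem copies (chr10:57683903-57691614, with 4933403O03Rik), held 672 to 1785 tags. Peaks over or near Bzw2, Mlc1, Cbfb, Mxi1, Polr1d and Clcn4-2 also ranked in the top 500 of every sample. Peaks over Gm10222 and Gm10925 (chr1:24618113-24623483), a stretch known as a nuclear copy of mitochondrial DNA, held 355 to 3984 tags, with 97.8% of the sequence multi-copy.

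The comparison of genotypes asked whether loss of Aid changed the tag counts of these regions. Tags were compared by edgeR's quasi-likelihood test over all merged regions with a peak in every sample compared, and BH-adjusted over them. Of 50635 regions tested, 1 (0.00197%) had an adjusted p under 0.05. The Aid+/+ and Aid-/- iPS clones together had top peaks in 1410 regions, of which 1398 were tested and 0 were called; 62 had an unadjusted p under 0.05 by edgeR (4.43%, against 3.55% of all regions), and 0 were called and 85 were under 0.05 by the DESeq2 Wald test (6.08%, against 3.19% of all regions). With total tags as the library size, 2 were under 0.05 by edgeR (0.143%, against 2.63%). The median log2 fold change, Aid-/- over Aid+/+, was 0.03 in these regions and 0.01 over all regions. Its sign in these regions rested on single clones and on blocks, at 0.22 without Aid+/+ iPS 1, -0.16 without Aid-/- iPS 4, 0.20 with clone series as a block and -0.34 with processing run as a block, while the median over all regions stayed between -0.01 and 0.03 in these fits. No family had a called region. The member regions were ranked on tags of the same clones, so the counts describe them and test nothing particular to them. Among 368 tested regions with a top peak only in samples outside this comparison, 0 were called. Of these, 51 had an unadjusted p under 0.05 by edgeR (13.9%, against 3.55% of all regions). Their median log2 fold change was 0.11.

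MEFs were compared with Aid+/+ iPS cells, the cells made from MEFs with the same genotype. Of 23316 regions tested, 10418 (44.7%) were called, 5280 (22.6%) higher in MEFs and 5138 (22.0%) lower. MEFs and Aid+/+ iPS clones had top peaks in 1463 regions, of which 141 lacked a peak in some sample and were not tested. Of the other 1322, 482 were called (36.5%, against 44.7% of all regions), 398 higher and 84 lower, and the median log2 fold change was 0.19 against -0.08 over all regions. Without MEF 3 the count was 255 of 1273 (241 higher and 14 lower; 20.0%, against 22.8% of all regions in that fit). The share of members called was not below that of all regions in every fit: it was 90.5% against 84.6% by filtered tags and 32.4% against 29.0% with peak length as an offset, and 52.1% against 53.1% without Aid+/+ iPS 1. The split depended on how libraries were equated, and MEFs had 17.5 to 19.6 M filtered tags against 9.63 to 15.9 M in Aid+/+ iPS cells. Trimmed mean of M values (TMM) scaling, used here, gave 398 higher and 84 lower. Scaling by total tags gave 160 and 46 (15.6% of members, against 32.0% of all regions), and scaling by filtered tags, an alternative chosen after seeing the data, gave 147 higher and 1050 lower. It moved the median over all regions to -0.51 and -1.30. The member regions kept a median 0.21 to 0.27 above that of all regions under the 3 scalings. The log2 fold changes below are not relative to all regions. Each is to be read beside the median over all regions of its scaling.

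The tandem families moved in opposite directions in MEFs under every scaling. All counts in this paragraph are of member regions with a peak in every sample compared, and the families were chosen after their values were seen, so no test of a family is given. Family 4 had 51 of 51 tested regions lower in MEFs, with a median log2 fold change of -0.75 (-1.13 by total tags and -1.94 by filtered tags). Family 6 had 13 of 13 higher with a median of 4.39 (3.96 and 3.17), and family 8 had 12 of 12 higher with 2.79 (2.36 and 1.58). The rest of the 33 member regions of family 6 lacked a peak in some sample compared and were not tested. Family 3 had 43 of 58 higher with a median of 0.66, which fell to 0.10 by total tags, where 0 were called, and turned to -0.61 by filtered tags, where 56 were lower. Relative to the median of all regions, family 3 stayed higher, by 0.62 with total tags and by 0.69 with filtered tags. Families 1, 2, 5 and 7 had medians of 0.10, 0.15, 0.02 and 0.03, against -0.08 over all regions. Of their 906, 147, 44 and 25 tested regions, 65, 7, 0 and 0 were higher and 2, 2, 2 and 3 lower. Over all regions 22.6% were higher and 22.0% lower, so these families lay below the share of all regions in both directions.

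Merged regions with the same sequences but no top peak of any sample were counted as well. The families were found through top peaks, those of families 6 and 8 mostly in MEFs, and a region was tested only with a peak in every sample compared, which a lower level in 1 group makes less likely, so these counts describe the families and support no test. Tested were 1042 of 1608 such regions of family 4, 2796 of 3839 of family 5, 533 of 3365 of family 6, 461 of 477 of family 8 and 595 of 599 of family 1. Among these, 860 regions of family 4 were lower in MEFs (82.5%, against 22.0% of all regions) and 2 higher, with a median of -0.73. For family 5, 808 were lower (28.9%) and 33 higher, with a median of -0.35. Regions of family 6 were higher in 452 cases (84.8%, against 22.6% of all regions) with a median of 1.84, and those of family 8 in 407 (88.3%) with a median of 1.84. With filtered tags as the library size, 261 regions of family 6 and 242 of family 8 were still higher, 67 and 53 were lower, and the medians of 0.64 and 0.62 stood 1.94 and 1.93 above the median of all regions. Family 1, by contrast, had 35 higher and 22 lower, below the share of all regions in both directions. Array regions of a family share sequence, so their tags can be placed at each other's copies and the regions are not independent of each other.

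**Figure D3:**
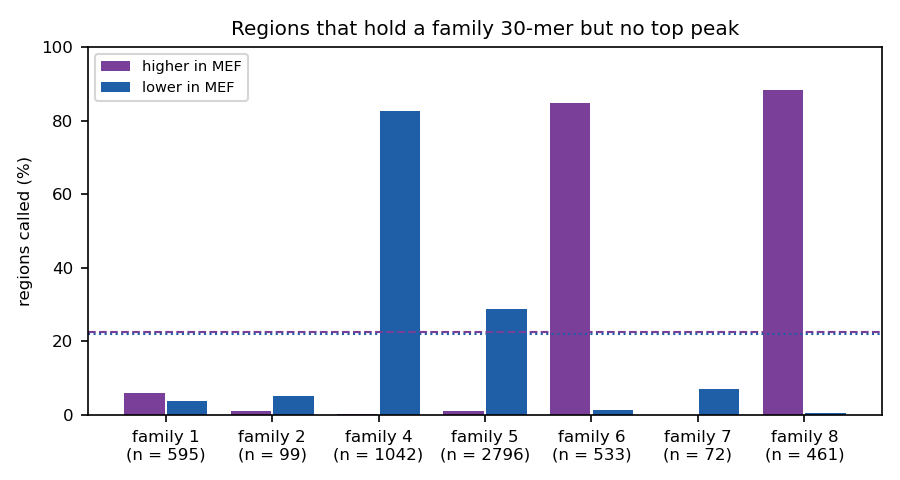
Percent of tested merged regions called higher or lower in MEFs than in Aid+/+ iPS cells among regions with a family's sequence but no top peak of any sample, for families 1, 2, 4, 5, 6, 7 and 8 (bars), with the shares over all tested regions as lines at 22.6% and 22.0%. Family 4 stands at 82.5% lower, families 6 and 8 at 84.8% and 88.3% higher, and family 1 below both lines.

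The member regions with the smallest p in MEFs over Aid+/+ iPS cells came from these families. An intronic peak of Gtsf1, a gene needed for silencing of transposons in germ cells (chr15:103240649-103243343, family 6), held 52, 33, 39 and 32 tags in Aid+/+ iPS clones and 725, 601 and 448 in MEFs. The groups did not overlap, and the log2 fold change was 4.57 ± 0.18 (SE; edgeR BH-adjusted p = 1.3e-08; 3.35 by filtered tags). A family 6 region 52.1 kb from Gm13519 (chr2:56650731-56654018) held 92, 41, 61 and 53 tags against 1075, 945 and 718 (log2 fold change 4.55 ± 0.21, edgeR BH-adjusted p = 1.36e-08). The third, near a 7SK gene on chromosome 18, also of family 6, had a log2 fold change of 3.64 ± 0.19 (edgeR BH-adjusted p = 2.12e-08). These regions were chosen for their p among members, and their size is a description.

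The 3 lower members with the smallest p lay in genes. Of all 84 members called lower, however, 51 were of family 4, whose 53 member regions were 35 intergenic and 18 intronic. An exon of Odz2, a teneurin of neuronal cell adhesion (chr11:35836435-35838850, no family, 0% multi-copy), held 695, 732, 786 and 497 tags in Aid+/+ iPS clones and 212, 229 and 134 in MEFs, with 388 to 608 in ES lines (log2 fold change -1.18 ± 0.18, edgeR BH-adjusted p = 0.000208). An intron of Coro2b, an actin-binding coronin (chr9:62290353-62294755, family 10), held 799, 589, 605 and 435 tags against 215, 195 and 141 (-1.06 ± 0.16, edgeR BH-adjusted p = 0.000152), and with peak length as an offset the value turned to 0.63. ES 1 and ES 2 held 45 and 33 tags there and ES 3 held 282. Gm13036 (chr4:146025732-146029969, exon, family 5) held 642, 824, 1181 and 880 tags against 218, 220 and 135 (-1.62 ± 0.26, edgeR BH-adjusted p = 0.000334). The MEF values lay below every iPS and ES value at Odz2 and Gm13036, and below every iPS value at Coro2b.

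Regions with a top peak in every sample were also among the called. The stretch near 9930005F22Rik (chr4:155509003-155513184) had a log2 fold change of 1.61 ± 0.27 in MEFs (edgeR BH-adjusted p = 0.000413; 1.05 by total tags and 0.31 by filtered tags, past the threshold in neither), and Gm10222 and Gm10925 had 1.95 ± 0.28 (BH-adjusted p = 0.000128; 0.71 by filtered tags, still called). A region 181 kb from Gm10479 (chr12:20231883-20240849) held 3998, 4802, 2699 and 3061 tags in Aid+/+ iPS clones and 1435, 1270 and 783 in MEFs (-1.04 ± 0.25, edgeR BH-adjusted p = 0.00546), a direction that turned to 0.21 with peak length as an offset. AY036118 had 1.52 ± 0.39 (edgeR BH-adjusted p = 0.00707), a call lost by total tags (1.03) and by filtered tags (0.26), and without Aid+/+ iPS 3 (1.32) or MEF 3 (1.54). Gm10800 had 0.68 ± 0.25 (edgeR BH-adjusted p = 0.0425), which turned to -0.58 by filtered tags (median over all regions -1.30) although its tag count barely moved. The call was also lost by total tags (0.28), with peak length as an offset (0.73), without Aid+/+ iPS 2 (0.68) or 3 (0.62) and without MEF 1 (0.82), 2 (0.73) or 3 (0.69).

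Peaks that ranked among the top only in fibroblasts were mostly over exons. In 106 regions every MEF culture and no other sample had a top peak; 90 were not multi-copy, 89 lay over an exon (63 of them including a UTR), 8 in an intron and 9 between genes. Their median GC content was 60.9%, and 9 belonged to a family. Of the 106, 38 also held a smaller peak in all 8 iPS clones and 4 held none in any. Zfp865, a zinc finger gene (chr7:4980293-4984070), held 2513, 2049 and 2543 tags in MEFs, 157 and 141 in ES 1 and ES 3, 14 to 55 in the 5 iPS clones with a peak and no peak in the other 4 samples. Bcl11b, a zinc finger transcription factor of T cells and neurons (chr12:109153295-109156050), held 2204, 1791 and 2356 tags in MEFs, 23 and 218 in ES 1 and ES 3, and 27 to 109 in the 6 iPS clones with a peak. No peak does not mean no tags, since a peak must pass a test against its local background. An intron of Cds1, an enzyme of phospholipid synthesis (chr5:102241820-102243102), held 632, 611 and 693 tags in MEFs against 268 to 511 elsewhere. Per M filtered tags its group means were 35.1 ± 2.91 in MEFs and 35.4 ± 7.16 in Aid+/+ iPS cells and all 3 MEF values lay inside the range of the Aid+/+ clones, whereas with TMM scaling the log2 fold change was 1.27 ± 0.21 (edgeR BH-adjusted p = 0.00035). These sets were chosen on the contrast and are descriptions.

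The opposite set looked different. In 13 regions every iPS clone and every ES line but no MEF culture had a top peak, and all 13 were multi-copy and belonged to a family; 10 were intergenic and 3 intronic. In 1 region, of family 4 and 436 kb from Pdha2 (chr3:140433775-140437266), all 8 iPS clones and no other sample had a top peak. It held 934, 873, 858 and 659 tags in Aid+/+ iPS clones, 692, 530, 494 and 865 in Aid-/- iPS clones, 34 and 536 in ES 1 and ES 3, no peak in ES 2, and 371, 368 and 192 in MEFs. In 3 family 1 regions all ES lines alone had a top peak, for example at 2310061C15Rik (chr8:119419756-119423139) with 648, 721 and 588 tags in ES lines and 512 to 1164 in Aid+/+ iPS clones. In the edgeR fit the 3 regions had log2 fold changes of 0.41, 0.51 and 0.42, ES over Aid+/+ iPS, and none was called. Per M filtered tags their means were lower in ES lines, at 50.0, 42.7 and 36.5 against 67.2, 53.5 and 47.1 in Aid+/+ iPS clones. The direction thus depends on the scaling. The rank 500 peak held 31.3 to 39.5 tags per M in ES lines and 41.3 to 56.9 in Aid+/+ iPS clones.

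Zinc finger genes lay under top peaks more often in MEFs than in the other cells, as did genes at large. Of 365 annotated Zfp genes, 39 lay under a top peak of some sample: 4 to 11 in each Aid+/+ iPS clone, 8 to 10 in each Aid-/- clone, 3, 2 and 11 in the ES lines and 27, 29 and 28 in the MEF cultures. This was 7.40 to 7.95% of the Zfp genes in MEFs and 1.10 to 3.01% in iPS clones, beside 1.04 to 1.15% and 0.482 to 0.720% of all 31529 annotated genes outside X and Y. A top peak of a MEF culture covered 31 of the 39, and 15 were covered in every MEF culture and in no other sample, among them Zfp865, Zfp46 (948 to 1178 tags in MEFs, 32 to 69 in iPS clones) and Zfp775 (973 to 1194 in MEFs, 14 to 101 in iPS clones). Others were shared. Zfp629 was covered in 14 samples and Zfp12 in 13 (all but ES 2). Zfp316 was covered in 10, with 2726, 1585, 1060 and 554 tags in Aid+/+ iPS clones, 1483, 1119, 261 and 1379 in Aid-/- iPS clones, 31 and 222 in ES 1 and ES 3, and 1927, 1657 and 2261 in MEFs. All MEF cultures and all iPS clones lay above both ES lines with a peak. Zfp genes form a large family with similar zinc finger exons, and tags may be shared between them where those exons are alike. Zfp27 and Zfp420 had the same counts in the same samples, so the 39 genes are not 39 separate peaks.

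Imprinted genes, which carry methylation on the copy from 1 parent, were covered in all groups. Of 20 listed genes, 10 lay under a top peak of some sample (50%, beside 2.49% of all genes), 5 to 6 in each MEF culture and ES line and 0 to 6 in each iPS clone. The 10 genes are not 10 separate peaks. Airn and Igf2r had the same count and rank in ES 2 (554 tags), and Nespas had the counts of Gnas in the 4 samples where it was covered. Gnas, which encodes a G protein subunit, was covered in 13 samples, with 1470, 1315, 1104 and 433 tags in Aid+/+ iPS clones, 697, 554, 290 and 954 in Aid-/- iPS clones, 645, 1155 and 1110 in ES lines and 1175, 873 and 911 in MEFs. Its groups overlapped, and 290 tags in Aid-/- iPS 3 fell short of that library's rank 500. Impact and Zrsr1 were covered in 12 samples each, with 306 to 1396 and 284 to 1059 tags over all 14. Peg10 and Grb10 were covered in 6 and 5, and ES 2 stood apart in both, with 29 and 21 tags against 217 to 914 and 75 to 903 in the other samples. Nnat was covered in 4 iPS clones.

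The introduced reprogramming factors gave peaks of top size in a few iPS clones. Sox2 (gene at chr3:34548927-34551383) held 1151, 857, 250 and 93 tags in Aid+/+ iPS clones and 402, 275, 61 and 343 in Aid-/- iPS clones, and no peak in any ES line or MEF culture. Only Aid+/+ clones 1 and 2 reached the top 500, and the clones spanned 61 to 1151 tags. Myc held 698 tags in Aid+/+ iPS 2, its only top peak, 43 to 486 in the other iPS clones, 22 and 87 in ES 1 and ES 3 and 130 to 164 in MEFs. Pou5f1, which encodes Oct3/4, held 39 to 139 tags in the 8 iPS clones and no peak in ES lines or MEFs, and Klf4 held 19 to 310 in the 8 iPS clones and 24 in ES 3 alone. The clones carry viral copies of Sox2, Oct3/4 and Klf4, and in some cases of c-Myc. Whether the tags came from those or from the genes' own loci was not tested. Nanog, the pluripotency gene of the reporter, held peaks in MEF 1 and MEF 2 only (37 and 50 tags), below top size.

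Other gene groups known for many copies or for dense CpGs differed in the share of members under a top peak. Of all 31529 genes, 786 (2.49%) lay under a top peak of some sample. Of 41 Hox genes, 70 histone genes and 12 Speer genes 0 did, and lists of this size would hold few at that share. Of 1241 olfactory receptor genes 1 did (0.0806%), and of 431 vomeronasal receptor genes 4 (0.928%). Clustered protocadherin genes stood above the share of all genes, at 3 of 25 (12%), with Pcdha11 in 9 samples and Pcdhb22 and Pcdhgc5 in 1 each. Of 5 listed multi-copy genes 1 did (20%), namely Sfi1. Sfi1, a centrosomal gene with several near-identical copies in this assembly, had a best rank of 2 and held 2176 to 3691 tags in Aid+/+ iPS clones, 2051 to 3679 in Aid-/- iPS clones and 2181 and 2036 in ES 1 and ES 3, and no peak in ES 2 or in MEFs. Fat1, a cadherin, held a top peak in every sample (538 to 2211 tags), and Zfhx3, a homeobox transcription factor, in all but ES 2. Fat1 is not among the 24 regions with a top peak of every sample, so its tags do not all come from 1 region. Its peak in ES 2 had a fold enrichment of 31.1, against 5.41 to 7.2 in the other samples.

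**Figure D4:**
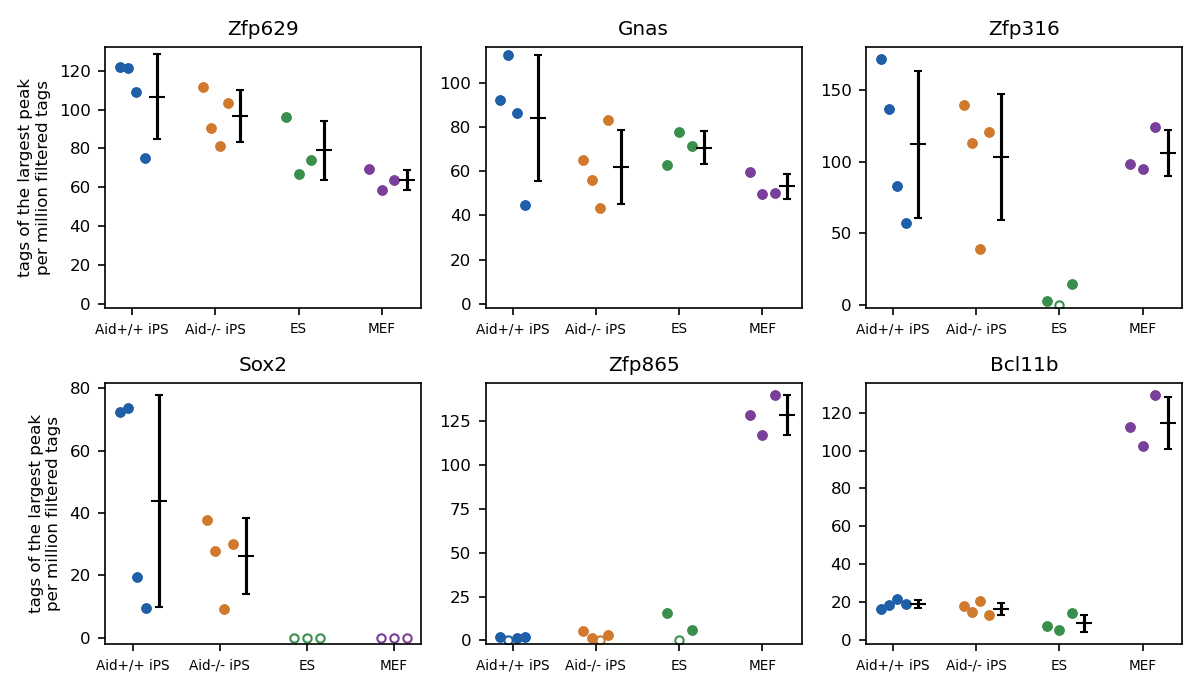
Tags per M filtered tags of the largest peak over Zfp629, Gnas, Zfp316, Sox2, Zfp865 and Bcl11b, 1 point a sample (filled, with a peak; open at 0, no peak called) with group mean ± SD of the samples with a peak. Zfp629 and Gnas have points in all 14 samples, Sox2 in the iPS clones alone, and Zfp865 and Bcl11b reach 102 to 140 tags per M in MEFs and at most 21.6 elsewhere.

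ES lines were compared with Aid+/+ iPS cells to ask whether reprogrammed cells match the pluripotent reference. Of 24105 regions tested by edgeR, 3 (0.0124%) were called. ES lines and Aid+/+ iPS clones had top peaks in 1503 regions, of which 1377 were tested and 0 called. An unadjusted p under 0.05 by edgeR was found in 131 (9.51%, against 10.2% of all regions). The DESeq2 Wald test called 46 of the 1377 (3.34%), against 326 over all regions (1.35%). The median log2 fold change, ES over Aid+/+ iPS, was 0.32 in these regions and close to 0 over all regions, and 0.01 in these regions without ES 2. Its sign depended on the scaling. By total tags it was -0.03 (-0.17 over all regions). By filtered tags, chosen after seeing the data, it was -0.47 (-0.68 over all regions). The members stood 0.15 to 0.32 above the median of all regions under the 3 scalings. Without ES 3, the line of strain C57BL6, 154 were called (99 higher and 55 lower). This was 11.9% of the 1290 members tested, against 10.6% of all regions in that fit (2565 calls). Members of family 4 had a median of -1.77 over 25 tested regions, of family 3 of -0.66 over 30 and of family 10 of -0.94 over 8, with 0 called in each.

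Tandem repeats made up a part of the top peaks. No tandem period of up to 600 bp was found in 5614 of the 7000 peaks. Among the others, 208 bp was the commonest period (300 peaks), followed by 4 bp (97), 212 bp (46) and 2 bp (42). A period of 6 bp was found in 37 peaks of 9 regions, of which that in an intron of Fam71e2 (chr7:4706457-4708344) held the most tags, 217 to 1539. The unit ACACAG was the commonest in these peaks, with 26.2% of the matches counted. A period of 220 to 250 bp was found in 1 peak, over an exon of Frmd8 (chr19:5860765-5862727).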

How the data were processed

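DNA was sonicated, enriched with an MBD kit and sequenced as 75-bp single reads. Per the labels and headers, the authors used CASAVA 1.8.1, mapped reads to NCBI build 37 (mm9) with BWA 0.5.9rc1 and called peaks per sample with MACS 1.4.1 or 1.4.0rc2, without a control, at a p-value of 1e-05, 1.87e+09 bp of mappable genome, a local background of up to 10 kb and 2 tags per position and strand. No mapping quality filter is stated. For each peak the authors deposited the count of filtered tags, a p-value score (-10 times log10 p) and the fold enrichment, a ratio to local background. Tags were counted over peaks called separately in each sample, so peak length moves with the count.

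Peaks were ranked by tags and merged where they overlap by 1 bp. Genes came from GENCODE on the same build. Contigs had no sequence or annotation here. Copies were counted as 31-base matches, and tandem periods as self-matches of 70% in 400-bp windows covering 50% of a peak. Tag counts of regions with a peak in every sample compared were tested by the edgeR 4.0.16 quasi-likelihood test (R 4.3.3, TMM, 2 groups per fit, BH over all regions), and composition by exact permutation tests (Python 3.11.15, SciPy 1.17.1). DESeq2 1.42.0, other scalings, filters, ranks and leaving out each replicate were alternatives. The edgeR fit was tested on simulated data.

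Regions named were the 8 with the most tags per M among those with a top peak of every sample, the 3 members with the smallest p in each direction, the 3 with the most tags per M under top peaks of only iPS cells, ES cells or MEFs, those at ranks 1 and 500 and the next, and the leading region of each repeat period. Genes of fixed lists (Zfp, imprinted, Hox, histone, receptor, protocadherin, multi-copy and introduced factor genes) were named where they lay under a top peak. Further regions from the same tables (Dux, Cbfb and others with a top peak of every sample, Fat1 and Zfhx3) and the families were named after their values were seen. Members and lists were chosen with earlier results of these data known.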

Additional observations from a re-analysis of the deposited data

Results flagged for a closer look

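The rank 1 peak of Aid-/- iPS 4, over AY036118, held 1721 tags per M filtered tags, against 678 to 729 in the other 3 Aid-/- iPS clones. Its gap to the nearest clone was 0.951 of the whole range of the group, which is above the 95% limit for 4 samples. In 20 such checks about 1 is expected by chance. The same region held 1425 tags per M in Aid+/+ iPS 2 and 1376 in ES 2, so the level itself was not confined to this clone.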

How the results depend on the processing

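No paired analysis was possible because the replicate numbers follow the order of the samples and pair none of them; the clone series that both genotypes share was used as a block. For the genotypes, 0 member regions were called under every alternative that compared more than 1 clone of each genotype. With clone series as a block the genotypes met only in Aid+/+ clones 3 and 4 and Aid-/- clones 1 and 2. That fit called 0 of all 50635 regions, so its count says little about the members. With processing run as a block they met only in run A, with 1 Aid+/+ clone, so no count is given for it. For MEFs, the count of 482 of 1322 (36.5%, against 44.7% of all regions) was 206 by total tags (15.6% against 32.0%). By filtered tags, chosen after seeing the data, it was 1197 (90.5% against 84.6%). It was 84 of 429 members of samples outside the comparison only (19.6% against 44.7%). With a top peak of every sample compared it was 34 of 51 (66.7% against 44.7%). Leaving out each replicate gave 255 to 621, from 20.0% against 22.8% without MEF 3 to 52.1% against 53.1% without Aid+/+ iPS 1. For ES cells, the count of 0 was 46 by DESeq2 (3.34% against 1.35% of all regions) and 1 with peak length as an offset (0.0726% against 0.0539%). It was 1 for members of samples outside the comparison only (0.461% against 0.0124%) and 1 for all members of those samples (0.0918% against 0.0124%). Leaving out each replicate gave 0 to 154, the last without ES 3 (11.9% against 10.6%).

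Differences that turned were the contig share in ES cells with 1000 peaks (-0.0917 percentage points), the contig share in MEFs ranked by tags per kb (0.317) and the CpG density of the genotypes ranked by tags per kb (-0.109). Leaving out each replicate gave -0.217 to 0.783 for the contig share of the genotypes, -0.05 to 1.15 for that of ES cells and -0.51 to 0.759 for their GC content. Among named regions, log2 fold changes in MEFs turned by filtered tags (median over all regions -1.30) at Gm10800 (-0.58), Gm10801 (-0.79), a region on Un_random (-1.06) and a region on 4_random (-0.26). They also turned by total tags (median over all regions -0.51) on Un_random (-0.17), where leaving out each replicate gave -0.00801 to 0.417. With peak length as an offset they turned at Gm10479 (0.21) and Coro2b (0.63). The cause of these changes was not tested beyond the setting named. Tags per M filtered tags at rank 500 ranged from 29.2 to 60.2, so a peak of equal tags per M can be a member in 1 library and not in another, and intervals here cover the spread between samples only.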
